A study of Mus musculus with 24 samples.

Results

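The 10 genes described here mark neuroblasts and immature neurons, the cells between a dividing progenitor and a mature granule neuron of the dentate gyrus. They were taken from a list of names that was chosen with earlier results of these data known. The names are Dcx, Eomes, Neurod1, Neurog2, Igfbpl1, Sox11, Sox4, Draxin, Tubb3 and Stmn1, and they are 10 of the 26667 rows of the count table. All 10 were found, Draxin under its older symbol 2610109H07Rik, and all 10 were among the 18286 genes that passed the low-count filter. RNA was sequenced from the dissected hippocampal dentate gyrus of wild-type C57BL6/J (WT) mice and of APP/PS1 mice, which carry transgenes that make them form amyloid plaques. The groups were 5 WT controls, 5 APP/PS1 controls, 4 APP/PS1 mice given BCI-838, 5 APP/PS1 mice given a running wheel, and 5 APP/PS1 mice given both. BCI-838 is converted in the body to a blocker of mGluR2 and mGluR3, which are glutamate receptors that damp transmitter release, and was given daily by mouth at 5 mg/kg for 1 month, and wheel access was free for 1 month. Mice without the drug received vehicle per the design text. The sources used here give neither the age of the mice nor the promoters that drive the transgenes. The study asked how the drug and running act on adult neurogenesis.

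New granule neurons arise in adult life from stem cells of the subgranular zone at the inner edge of the granule cell layer. Their progeny pass through an Eomes-positive progenitor stage and a stage that contains the microtubule protein doublecortin, encoded by Dcx, before they mature. Basic helix-loop-helix factors such as Neurog2 and Neurod1 push progenitors towards a neuronal fate, and the related factors Sox4 and Sox11 switch on neuronal genes. Several of these genes are not limited to newborn cells, since Neurod1 also stays on in mature granule neurons and Tubb3 and Stmn1 are made by neurons at large. In bulk tissue, fewer cells of a type and less RNA per cell cannot be told apart.

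The libraries held between 48656360 and 64632882 counts. The mature granule neuron list (12 genes, among them Prox1, the factor that sets granule cell identity) had no gene at 0 in any library. Its summed level still ran from 356 CPM (the usual unit of counts divided by the scaled library total) in WT replicate 3 to 1756 CPM in the APP/PS1 controls. Choroid plexus genes stood apart in 4 libraries. Ttr, which encodes transthyretin, was above 100 CPM in APP/PS1 control replicates 2, 4 and 5 and in replicate 5 of the combined group. Transcription factors of the dorsal midbrain were also present, with summed levels from 2.89 to 100.1 CPM, and all 4 BCI-838 libraries lay between 49.5 and 100.1 CPM. No pair of libraries in a group agreed within sampling noise. The labels name no sequencing batch. The p-values of group comparisons set a difference between groups against the spread between libraries within groups. That spread includes the differences in granule, choroid plexus and midbrain RNA described here.

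The 10 genes lie on 8 chromosomes of the mouse build GRCm38. The regulators are Eomes (chromosome 9 from 118478212 to 118486132), Neurog2 (chromosome 3 from 127633135 to 127635631), Neurod1 (chromosome 2 from 79452521 to 79456751), Sox11 (chromosome 12 from 27334264 to 27342574) and Sox4 (chromosome 13 from 28948919 to 28953713). The secreted proteins are Igfbpl1 (chromosome 4 from 45809468 to 45826923) and Draxin (chromosome 4 from 148098437 to 148130698). The cytoskeletal genes are Dcx (chromosome X from 143855842 to 143933311), Tubb3 (chromosome 8 from 123411424 to 123422015) and Stmn1 (chromosome 4 from 134468320 to 134473843). An antisense transcript covers 54.6% of the single exon of Sox4, and 13.0% of the exon bases of Neurod1 overlap other annotated genes. For Neurod1 these are Cerkl on the same strand and Gm26755 on the opposite strand. No source used here says whether counting used strand, so reads of opposite-strand partners cannot be told apart from those of Sox4 and Neurod1. For Cerkl, the strand of a read would not separate them either.

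Promoter sequences are shown for Sox11 and Neurog2, the members in which every BCI-838 library lay above every APP/PS1 control, and for Sox4 and Draxin, which share a motif with Sox11. Each run holds 250 bases before and 50 bases after the annotated start, read 5′ to 3′ on the strand of the gene, from RefSeq on GRCm38.p6. Capitals mark the E-box CAGCTG (a palindrome, of the kind that helix-loop-helix factors bind) in the first 3 promoters. In Neurog2 they mark ATTGTT, the reverse strand of AACAAT, a SOX-type motif.
Sox11: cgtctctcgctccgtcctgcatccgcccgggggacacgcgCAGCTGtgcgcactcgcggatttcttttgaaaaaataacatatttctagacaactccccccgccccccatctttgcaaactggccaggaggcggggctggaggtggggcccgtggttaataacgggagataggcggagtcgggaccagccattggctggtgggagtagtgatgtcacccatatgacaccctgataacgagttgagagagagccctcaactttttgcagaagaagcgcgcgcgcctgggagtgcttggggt
Sox4: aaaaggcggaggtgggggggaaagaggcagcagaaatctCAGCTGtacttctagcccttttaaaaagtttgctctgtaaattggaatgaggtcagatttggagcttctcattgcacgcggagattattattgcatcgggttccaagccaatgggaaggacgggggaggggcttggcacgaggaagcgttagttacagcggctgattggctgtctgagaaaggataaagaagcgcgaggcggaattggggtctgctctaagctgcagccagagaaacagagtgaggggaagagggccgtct
Draxin: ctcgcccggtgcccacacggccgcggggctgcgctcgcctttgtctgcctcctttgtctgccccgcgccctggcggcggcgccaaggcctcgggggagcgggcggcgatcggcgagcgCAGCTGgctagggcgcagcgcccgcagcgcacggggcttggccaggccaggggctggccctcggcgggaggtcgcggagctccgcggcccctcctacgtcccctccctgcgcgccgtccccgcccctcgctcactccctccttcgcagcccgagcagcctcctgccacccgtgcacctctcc
Neurog2: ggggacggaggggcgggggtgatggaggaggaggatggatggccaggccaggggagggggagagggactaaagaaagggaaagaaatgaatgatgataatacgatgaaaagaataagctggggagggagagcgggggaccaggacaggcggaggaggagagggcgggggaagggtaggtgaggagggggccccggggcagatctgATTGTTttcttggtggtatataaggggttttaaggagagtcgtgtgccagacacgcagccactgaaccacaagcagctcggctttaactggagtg
These promoters lie at chr12:27342669-27342968 (minus strand), chr13:28953650-28953949 (minus strand), chr4:148130649-148130948 (minus strand) and chr3:127632886-127633185 (plus strand). Of the members, 8 had a promoter of this length in the RefSeq table. CAGCTG was present in Sox11, Sox4 and Draxin and in 16.3% of all 32851 promoters, searched on both strands. AACAAT was present in Neurog2 alone of the 8 and in 10.7% of all promoters. CAGATG, another E-box, was present in none of the 8 and in 17.2% of all promoters. The motifs do not overlap each other in these promoters. A match describes the letters and is not a binding site.

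Per kilobase of exon, the members spanned about 3 orders of magnitude in WT mice. Stmn1, a protein that takes microtubules apart, led at 146 ± 54.1 CPM per kb (SD, n = 5), and Tubb3, the neuronal beta-tubulin, followed at 128 ± 36.03 CPM per kb (SD, n = 5). These levels differed by less than their spread. Neurod1 had 9.38 ± 3.45, Sox4 4.70 ± 0.551, Sox11 3.19 ± 0.998 and Dcx 2.21 ± 0.469 CPM per kb (SD, n = 5 each). Of these neighbours, Sox4 and Sox11 overlapped within 1 SD, as did Sox11 and Dcx. The lowest were Igfbpl1 at 0.805 ± 0.445, Neurog2 at 0.299 ± 0.109, Draxin at 0.222 ± 0.0511 and Eomes at 0.123 ± 0.0775 CPM per kb (SD, n = 5 each). Each of the last 4 overlapped its neighbour within 1 SD. The low levels rest on few reads. Eomes had between 2 and 123 counts in a library and Neurog2 between 8 and 110, against 1110 to 2894 for Dcx and 7203 to 30206 for Stmn1.

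No member was called in any of the 7 comparisons or in the test for any difference among the 5 groups, by edgeR's quasi-likelihood test at a Benjamini-Hochberg adjusted p under 0.05. DESeq2 called none either. Before adjustment, edgeR gave p under 0.05 for 3 members with the drug, 1 with both treatments, 1 with the drug added to the wheel and 1 with the wheel added to the drug. It gave none for the genotype, the wheel or the interaction. In the test for any difference among the 5 groups 2 members had p under 0.05. Of all genes tested, 10.2% had p under 0.05 with the drug (4.23% with a higher level), 10.6% with both treatments, 17.6% with the drug added to the wheel, 14.3% with the wheel added to the drug and 14.1% in the 5-group test. The counts of 1 in 10 are therefore near or below the share of all genes. Few genes of any kind were called. The share of all genes was 0.0109% for the genotype, 0.00547% for the wheel, 0.0273% for any difference among the groups, and 0% for each of the other 5 comparisons.

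**Figure D1:**
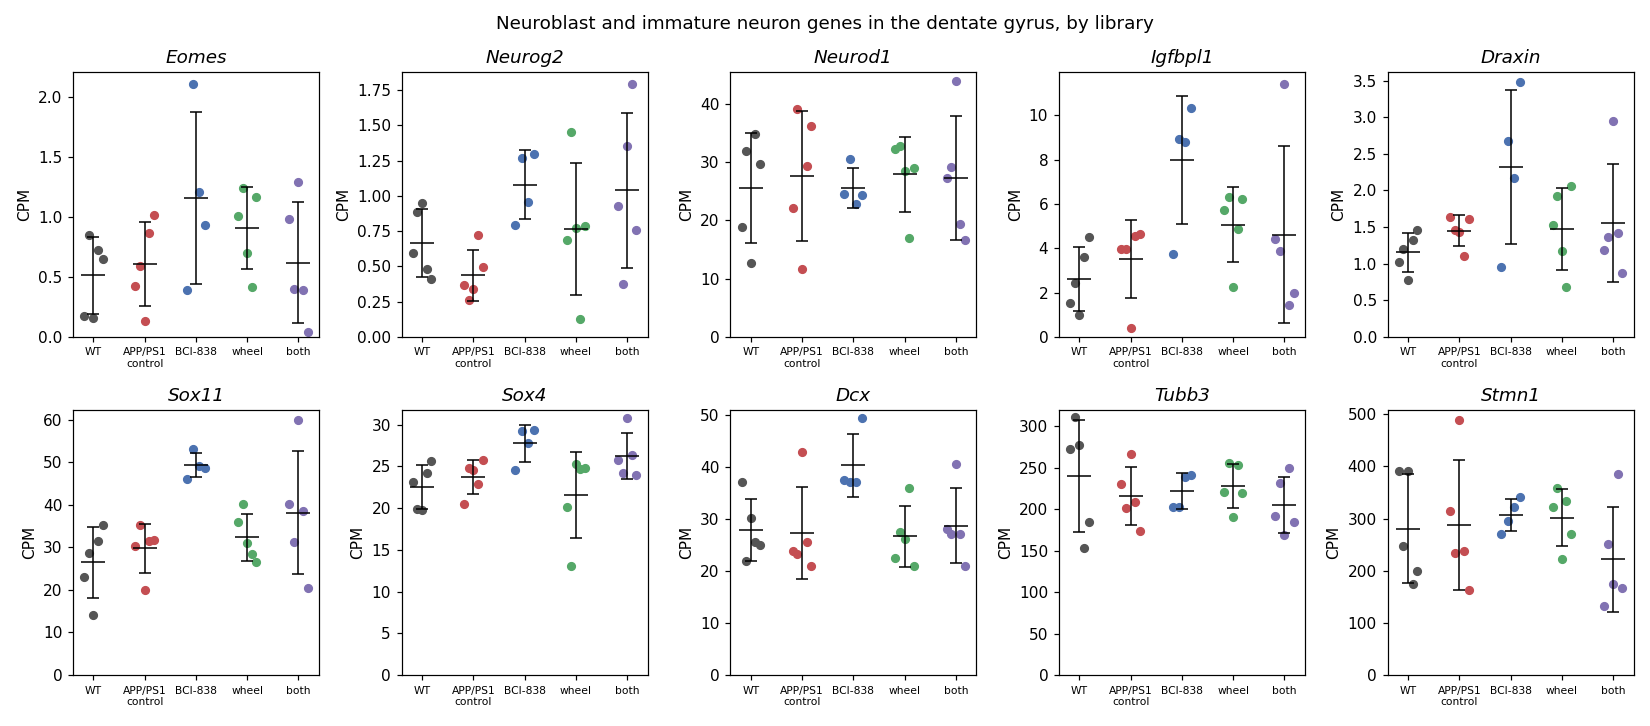
Level of each of the 10 genes in CPM (vertical axis, from 0) in every library, by group. Points are libraries, bars are the mean and SD. The 4 BCI-838 libraries sit above all 5 APP/PS1 controls for Sox11 (46.2 to 53.1 against 20.1 to 35.3 CPM) and Neurog2.

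The drug comparison set APP/PS1 mice on BCI-838 against APP/PS1 controls. Of the 10 members, 9 were higher with the drug by edgeR's log2 fold change. The median log2 fold change of the 10 was 0.62, beside 0.000151 over all genes tested. Among all genes tested, 50.1% were higher. The members are not independent of one another, since several varied together across libraries, as described below. No member passed the adjusted threshold. In Sox11 and Neurog2 every BCI-838 library lay above every APP/PS1 control, which held for 2.51% of all genes tested.

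Sox11, a SoxC factor of early neurons, had 46.2, 53.1, 49.2 and 48.8 CPM in the 4 BCI-838 libraries. The 5 APP/PS1 controls had 30.3, 35.3, 20.1, 31.4 and 31.8 CPM. The groups did not overlap, and the BCI-838 libraries lay close together. The mean was 49.3 ± 2.85 CPM (SD, n = 4) against 29.8 ± 5.73 CPM (SD, n = 5). On the log2 scale the difference was 0.73 with a standard error of 0.24. The p was 0.007008 before adjustment and 0.3091 after it in edgeR. With each library left out in turn the log2 fold change stayed between 0.61 and 0.80. The adjusted p of Sox11 ran over a wide range under the alternative fits, given below with the granule covariate.

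Neurog2, a proneural factor that commits progenitors to a neuronal fate, had 0.794, 1.27, 0.960 and 1.30 CPM with the drug. The APP/PS1 controls had 0.365, 0.259, 0.340, 0.725 and 0.492 CPM. These groups did not overlap either, although the lowest BCI-838 library was close to the highest control. The mean was 1.08 ± 0.244 CPM (SD, n = 4) against 0.436 ± 0.182 CPM (SD, n = 5). The log2 fold change was 1.31 with a standard error of 0.47 (edgeR adjusted p = 0.3362).

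Dcx, the usual marker of neuroblasts, had 37.5, 37.0, 37.2 and 49.4 CPM with the drug. The controls had 23.9, 23.3, 42.9, 25.6 and 20.9 CPM. The groups overlapped through 1 library, control replicate 3, which exceeded 3 of the 4 BCI-838 libraries. The mean was 40.3 ± 6.07 CPM (SD, n = 4) against 27.3 ± 8.89 CPM (SD, n = 5). The log2 fold change of Dcx was 0.56 with a standard error of 0.21 (edgeR adjusted p = 0.3519). Without control replicate 3 it was 0.77, and without BCI-838 replicate 4 it was 0.43 (edgeR adjusted p = 0.07706 and 0.7242). The value of Dcx moved by more than 1.5 times under 3 alternatives. It was 0.27 without the libraries with over 100 Ttr CPM, which leaves APP/PS1 control replicates 1 and 3, at 23.9 and 42.9 CPM. It was 0.37 with the choroid plexus list as a covariate and 0.31 with the dorsal midbrain list as a covariate.

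Igfbpl1, a secreted protein related to the insulin-like growth factor binding proteins, had 3.76, 8.94, 8.82 and 10.4 CPM with the drug. The controls had 3.96, 3.98, 0.405, 4.57 and 4.64 CPM. BCI-838 replicate 1 lay among the controls and the other 3 libraries lay above them all. The log2 fold change was 1.18 with a standard error of 0.58 (edgeR adjusted p = 0.4943). It was 2.02 with the mature granule list as a covariate and 1.87 without the libraries with over 100 Ttr CPM.

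Draxin, a secreted axon guidance protein, had 0.953, 2.68, 2.17 and 3.48 CPM with the drug and 1.64, 1.46, 1.43, 1.11 and 1.62 CPM in the controls. BCI-838 replicate 1 was below every control and the other 3 were above every control. The log2 fold change was 0.68 with a standard error of 0.35 (edgeR adjusted p = 0.5222), and 0.40 without BCI-838 replicate 4.

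Eomes, the T-box factor of intermediate progenitors, showed the same library at the bottom, with 0.388, 2.11, 1.21 and 0.938 CPM with the drug. The controls had 0.426, 0.592, 0.130, 0.870 and 1.02 CPM, and the groups overlapped. Its log2 fold change was 0.94 with a standard error of 0.65 (edgeR adjusted p = 0.6541). Without BCI-838 replicate 2, the highest, it was 0.47. It was 1.80 with the mature granule list as a covariate and 2.05 without the libraries with over 100 Ttr CPM. For Sox4, the close relative of Sox11, it was 0.23 with a standard error of 0.14. Neurod1, Tubb3 and Stmn1 had log2 fold changes of -0.11, 0.04 and 0.10, each within its standard error.

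**Figure D2:**
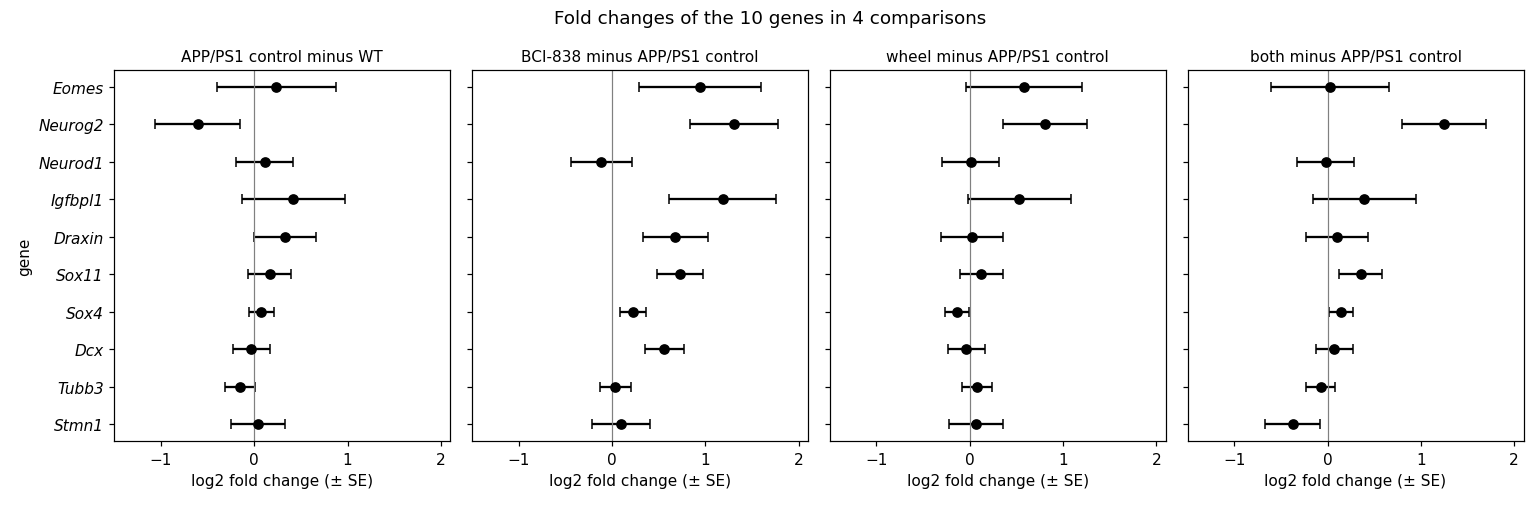
Log2 fold change (horizontal axis) of each of the 10 genes in 4 comparisons, with bars of 1 standard error from edgeR. With BCI-838 the values of Neurog2, Igfbpl1 and Sox11 lie at 1.31, 1.18 and 0.73, and with the wheel those of Neurog2 and Igfbpl1 lie at 0.81 and 0.53.

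Several other lists moved beside the members in the drug comparison. Dorsal midbrain factors had a median log2 fold change of 1.43, with 8 of 9 tested higher. Their summed level was 49.5 to 100.1 CPM with the drug and 3.88 to 76.3 CPM in the controls, and 0 to 2 of the 11 were at 0 in either group. Choroid plexus genes had a median log2 fold change of -2.47, with 11 of 12 lower. Their sums were 206 to 259 CPM with the drug and 238 to 2523 CPM in the controls, and at most 1 of the 12 was at 0. CA field pyramidal genes, of the neighbouring hippocampal fields, had a median of -0.41 with 11 of 13 lower. Their sums were 427 to 612 CPM with the drug and 413 to 911 CPM in the controls, with none at 0. Cajal-Retzius genes, of the Reln-producing cells of the outer molecular layer, had a median of 0.65 with 6 of 7 higher. Their sums were 228 to 312 CPM with the drug and 124 to 215 CPM in the controls, with none at 0. No gene of these lists was called. The part of these tissues in the members' values was not tested beyond the fits with a list as a covariate.

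Dcx and Sox11 are also made by neuroblasts of the subventricular zone, which carry Dlx and Sp factors. In the list of such genes and interneuron genes, 7 of 9 were lower with the drug, and the summed level was 791 to 943 CPM against 435 to 775 CPM. The higher genes were Gad1 and Gad2, the enzymes of GABA synthesis, with log2 fold changes of 0.45 and 0.90. Dlx2 itself was 1.91 to 3.02 CPM with the drug and 2.70 to 4.91 CPM in the controls.

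In the genotype comparison, APP/PS1 controls against WT controls, all 10 members overlapped between the groups. So did nearly all genes tested, since every APP/PS1 control lay above every WT library in 0.186% of them and below in 0.126%. Of the 10, 7 were higher and 3 lower, with a median log2 fold change of 0.09 beside -0.00784 over all genes tested. Neurog2 had the smallest p, with a log2 fold change of -0.61 and a standard error of 0.45 (edgeR adjusted p = 0.9998). Its 5 WT libraries had 0.593, 0.887, 0.951, 0.483 and 0.412 CPM. Dcx was 27.9 ± 5.93 CPM in WT and 27.3 ± 8.89 CPM in APP/PS1 controls (SD, n = 5 each). Its log2 fold change was -0.03, with a 95% interval from -0.44 to 0.38. Sox11 in WT had 23.1, 28.6, 13.99, 31.6 and 35.3 CPM, and its log2 fold change was 0.17 with an interval from -0.32 to 0.65. All 12 choroid plexus genes were higher in the APP/PS1 controls, with a median log2 fold change of 2.93. Without the libraries with over 100 Ttr CPM, 6 of the 10 members changed sign in this comparison.

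With the wheel alone, the levels of all 10 members overlapped those of the APP/PS1 controls. Nearly all genes tested did too, since every wheel library lay above every control in 0.257% of them and below in 0.328%. The members split 8 higher and 2 lower, with a median log2 fold change of 0.07 beside 0.00884 over all genes. The split was 5 and 5 without the libraries with over 100 Ttr CPM, with the choroid plexus covariate and without wheel replicate 2. Neurog2 had 0.685, 1.45, 0.770, 0.129 and 0.789 CPM with the wheel. Of these, 3 libraries exceeded every control and 1 lay below every control. Neurog2 had a log2 fold change of 0.81 with a standard error of 0.45 (edgeR adjusted p = 0.9745), and 0.42 without wheel replicate 2, the highest. Igfbpl1 had 5.73, 6.30, 2.24, 4.88 and 6.21 CPM, so 4 of 5 libraries exceeded every control, with a log2 fold change of 0.53 and a standard error of 0.55. Without control replicate 3, the lowest, it was 0.23, and without the libraries with over 100 Ttr CPM or with the choroid plexus covariate it was 1.21 or 1.03. Dcx had 22.5, 27.5, 26.2, 35.95 and 21.0 CPM, a log2 fold change of -0.04 with an interval from -0.44 to 0.37. The choroid plexus list was lower here too, in 12 of 12 genes, with a median of -3.23.

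Mice with both treatments had a member with p under 0.05 before adjustment, Neurog2. Its libraries had 0.925, 0.371, 1.35, 1.80 and 0.757 CPM, 4 of 5 above every APP/PS1 control. The mean was 1.04 ± 0.550 CPM (SD, n = 5), the log2 fold change 1.25 with a standard error of 0.45 (edgeR adjusted p = 0.3475). Sox11 had 40.3, 31.4, 59.9, 38.7 and 20.5 CPM with both treatments. That spread ran from near the lowest control to above every BCI-838 library. The log2 fold change of Sox11 was 0.36 with a standard error of 0.23, 0.13 without replicate 3, 0.23 without control replicate 3 and 0.76 without the libraries with over 100 Ttr CPM. Dcx had 28.1, 27.1, 40.5, 27.0 and 21.0 CPM, a log2 fold change of 0.07 with an interval from -0.33 to 0.48. Igfbpl1 had 4.40, 3.87, 11.4, 1.44 and 1.97 CPM, and Eomes 0.981, 0.402, 1.29, 0.392 and 0.0378 CPM. In these 4 genes, Sox11, Dcx, Igfbpl1 and Eomes, replicate 3 was the highest library of the group. Over the 10 members, 7 were higher and 3 lower than in APP/PS1 controls, with a median of 0.09 beside -0.0059 over all genes. Without replicate 3 of the combined group 3 were higher.

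The drug, wheel and combined comparisons share the APP/PS1 controls, so their values are given side by side and are not independent. For Neurog2 they were 1.31, 0.81 and 1.25, and for Igfbpl1 1.18, 0.53 and 0.39. For Sox11 the log2 fold changes were 0.73, 0.12 and 0.36, and for Dcx 0.56, -0.04 and 0.07.

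Adding the wheel to the drug gave lower values for 9 of the 10 members, with a median log2 fold change of -0.42 beside -0.00566 over all genes. With the CA field covariate 6 were lower. Dcx had the smallest p, with a log2 fold change of -0.49 and a standard error of 0.21 (edgeR adjusted p = 0.2820). Its combined libraries overlapped the BCI-838 libraries through replicate 3. With the dorsal midbrain list as a covariate the value for Dcx was -0.03, and with the CA field list it was -0.29. The summed midbrain level was 2.89 to 37.7 CPM in the combined group, below all 4 BCI-838 libraries. Adding the drug to the wheel left 5 members higher and 5 lower, and 3 higher without replicate 3 of the combined group. Sox4 had 25.7, 24.3, 30.9, 26.4 and 23.95 CPM with both treatments and 20.1, 13.1, 25.3, 24.6 and 24.8 CPM with the wheel alone. The difference of Sox4 was 0.28 on the log2 scale with a standard error of 0.13 (edgeR adjusted p = 0.2718), and 0.16 without wheel replicate 2, the lowest.

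The interaction asks whether the drug's difference is the same with and without the wheel. It was below 0 for 8 of the 10 members, with a median of -0.52 on the log2 scale beside -0.0131 over all genes. No member had p under 0.05. For Dcx it was -0.45 with an interval from -1.04 to 0.14, for Sox11 -0.49 from -1.19 to 0.21, and for Igfbpl1 -1.32 from -2.97 to 0.33. With the dorsal midbrain covariate the Dcx value was 0.0031, with the choroid plexus or CA field covariate -0.26 or -0.25, and without the libraries with over 100 Ttr CPM -0.07. The Sox11 value was -0.05 with the CA field covariate and -0.32 without replicate 5 of the combined group, and that of Igfbpl1 was -2.004 with the granule covariate. Each interval includes 0 and a wide range below it, so a difference was not detected and its size is poorly known. The test for any difference among the 5 groups gave its smallest p for Sox11 (edgeR adjusted p = 0.2729), followed by Dcx (edgeR adjusted p = 0.3516).

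Across libraries, the members fell into sets that varied together. With group means removed, Eomes, Neurod1, Igfbpl1 and Sox11 varied with one another over the 24 libraries. Pearson's r was 0.82 for Eomes with Neurod1, 0.82 for Neurod1 with Sox11, 0.82 for Eomes with Sox11 and 0.76 for Eomes with Igfbpl1. Spearman's rho for these pairs was 0.80, 0.82, 0.76 and 0.70. The first 3 Pearson values reached a permutation p of 1e-05, the smallest that 100000 resamples can give (adjusted p = 0.000072 over 36 pairs, and at most 0.00072 for the rho of the same 3 pairs). Without the 2 libraries farthest from the median of the first gene, r was 0.78, 0.74, 0.71 and 0.73. Draxin followed less closely, with r between 0.52 and 0.64 and rho between 0.56 and 0.63 with these 4 genes (permutation, adjusted p at most 0.02402 for r and 0.0144 for rho). Tubb3 and Stmn1 formed a pair of their own, with r of 0.81 and rho of 0.87 (adjusted permutation p = 0.000072 and 0.00018), and r of 0.91 without the 2 farthest libraries. Neurod1 and Stmn1 went opposite ways, with r of -0.65 and rho of -0.59 (adjusted permutation p = 0.002115 and 0.01256), and r of -0.49 without the 2 farthest. All members share each library's depth and dissection. The permutations shuffled the values across groups after the group means were removed, so the permutation p-values here and below may be too small.

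Dcx did not follow the other members. None of its 9 correlations passed adjustment. The highest was with Stmn1, with r of 0.49 and rho of 0.41 (permutation p = 0.0138 and 0.0445, adjusted p = 0.1246 and 0.301), and 0.47 without the 2 libraries farthest in Dcx. With Sox11 it was -0.04, with Eomes -0.20 and with Neurod1 -0.39. The correlation of Dcx with Eomes became -0.44 without the 4 libraries with over 100 Ttr CPM. That with Sox11 became 0.31 when group means were kept.

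**Figure D3:**
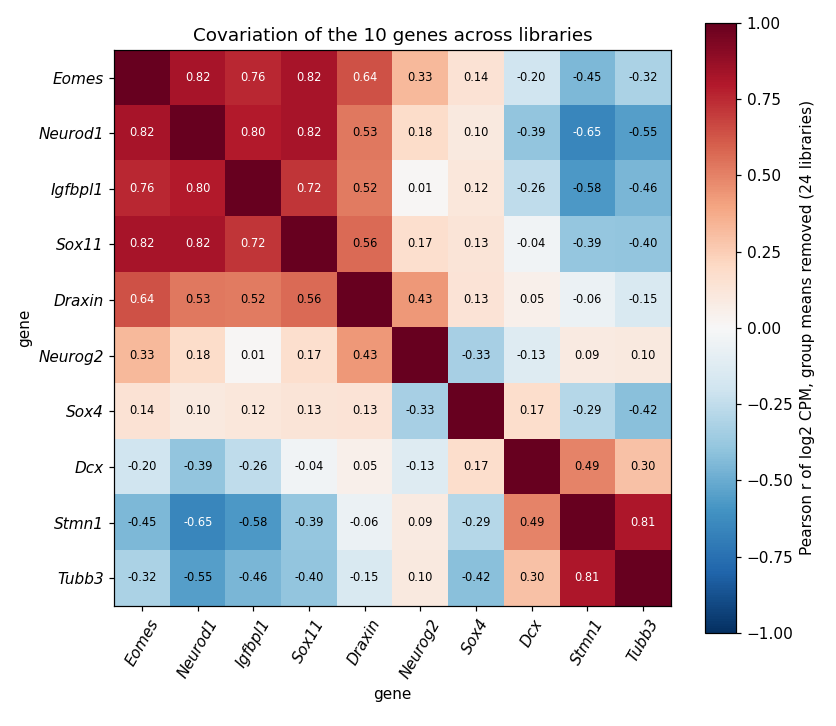
Pearson r of log2 CPM between each pair of the 10 genes over 24 libraries, with group means removed (colour from -1 to 1, value in each cell). The block at the upper left holds Eomes, Neurod1, Igfbpl1, Sox11 and Draxin, the block at the lower right Stmn1 and Tubb3, and Dcx correlates at most 0.49 with any gene.

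The same sets differed in how they followed mature granule neuron genes, a relation examined after the data were seen. Against the mean log2 CPM of the 12 granule genes, with group means removed, r was 0.91 for Neurod1, 0.72 for Sox11, 0.70 for Igfbpl1 and 0.65 for Eomes. The rho values were 0.88, 0.66, 0.63 and 0.61, and the adjusted permutation p over 10 members was at most 0.00285 for each measure. Stmn1 and Tubb3 went the other way, with r of -0.76 and -0.62 and rho of -0.70 and -0.61 (adjusted permutation p at most 0.00285). Dcx had r of -0.50 and rho of -0.38 (adjusted permutation p = 0.0194 and 0.1), and r of -0.33 without the 2 libraries farthest in the granule mean. Neurog2, Sox4 and Draxin had r of -0.06, 0.09 and 0.29, none past adjustment. Without those 2 libraries r was 0.86 for Neurod1, 0.51 for Sox11, 0.50 for Igfbpl1 and 0.55 for Eomes, and -0.68 for Stmn1 and -0.56 for Tubb3. The libraries with the lowest granule mean were WT replicate 3 at 4.201, APP/PS1 control replicate 3 at 4.72 and combined replicate 4 at 5.01.

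**Figure D4:**
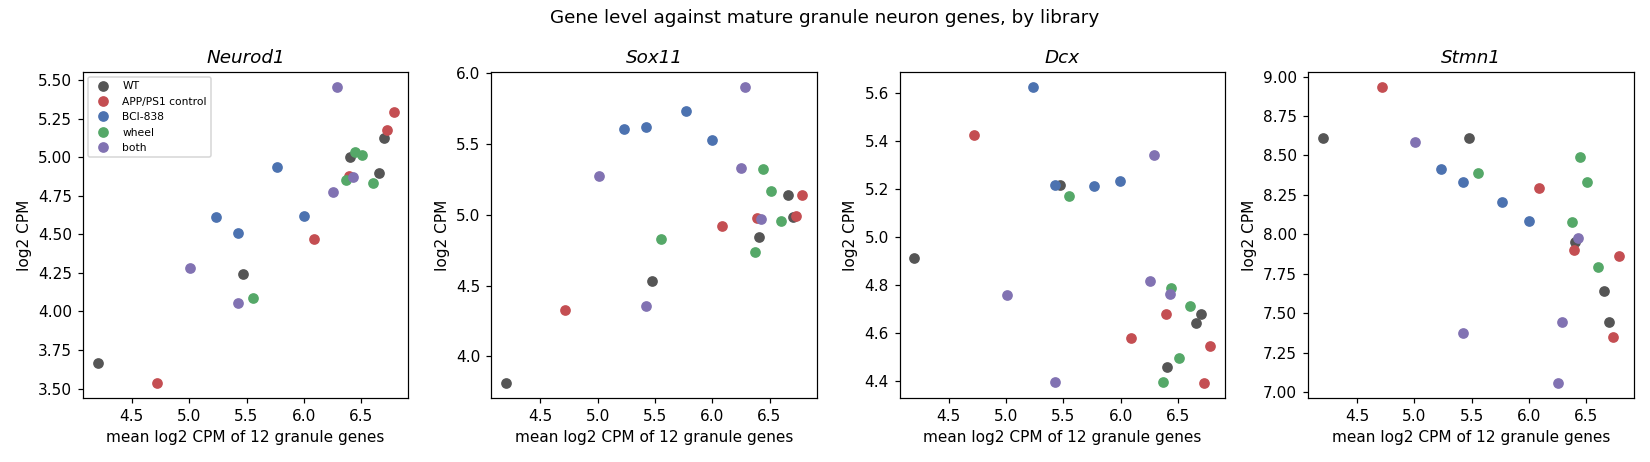
Log2 CPM of Neurod1, Sox11, Dcx and Stmn1 (vertical axes) against the mean log2 CPM of 12 mature granule neuron genes (horizontal axes), 1 point for each library, coloured by group. Neurod1 climbs with the granule mean (r = 0.91 with group means removed), Stmn1 descends (r = -0.76), and the 4 BCI-838 libraries lie above most others for Sox11.

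A fit that added this granule mean as a covariate, also chosen after seeing the data, was the only alternative run in which a member was called. Sox11 had a log2 fold change of 0.97 with a standard error of 0.18 in the drug comparison (edgeR adjusted p = 0.04251), beside adjusted p from 0.143 to 0.8894 under the other alternatives. In that fit 17 genes were called for the drug. The covariate, the mean log2 CPM of the granule list, was 5.999, 5.768, 5.425 and 5.233 in the BCI-838 libraries. In the APP/PS1 controls it was 6.087, 6.783, 4.719, 6.392 and 6.729. The part of these covariate levels in the Sox11 value was not tested. Of the 12 granule genes, 6 were higher and 6 lower with the drug, with a median log2 fold change of -0.03. At p under 0.05 before adjustment 4 were lower and none higher, and the smallest p were those of Calb1 and Tdo2, at -1.38 and -2.62.

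Single libraries were high or low in several members at once. APP/PS1 control replicate 3 held the lowest Neurod1 (11.6 CPM) and Igfbpl1 (0.405 CPM) of all 24 libraries and the highest Stmn1 (489.6 CPM). It also held the highest Dcx of its group. Dcx was above 35 CPM, a level chosen after its values were seen, in 8 libraries: the 4 with BCI-838, WT replicate 1, wheel replicate 4, control replicate 3 and combined replicate 3. Of these 8, the first 6 had a summed midbrain level between 49.5 and 100.1 CPM and the other two 24.9 and 19.3 CPM. APP/PS1 control replicate 1 had 76.3 CPM of midbrain factors and 23.9 CPM of Dcx. Since 4 of the first 6 are the whole BCI-838 group, drug and midbrain level cannot be told apart in them. A link of Dcx with midbrain factors was not tested beyond the fits with that list as a covariate.

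Genes outside the members that varied most like Dcx were sought among 12949 named genes with a mean of at least 1 CPM, over 24 libraries with group means removed. The closest was Tsc1, a brake on the growth regulator mTOR, with r of 0.85 and rho of 0.81. Pitpnm3, Sstr1 and Wisp1 were also among the closest, with r of 0.85, 0.82 and 0.81. Those most like Eomes were Acvr1c, a receptor of the activin family, with r of 0.93 and rho of 0.88, then Bambi, Plekha2, Batf3 and Net1, with r of 0.88, 0.87, 0.87 and 0.86. No gene named here appeared in both sets. They were ranked by r and carry no test.

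Other genes of the lineage were taken from 4 lists, and no gene of these lists was called in the drug comparison. Of 29 further neuroblast and immature neuron genes, 15 were higher and 14 lower, with a median of 0.07. At p under 0.05 before adjustment 1 was higher and 6 were lower. Those with the smallest p were Neurod2, a factor of maturing neurons, at -0.90 with a standard error of 0.27, and St8sia4, which makes polysialic acid, at 0.48 with a standard error of 0.16. Of 18 stem and progenitor genes, 6 were higher and 12 lower, with a median of -0.08, and 2 had p under 0.05, both lower. Hopx, a marker of quiescent stem cells, had -0.41 with a standard error of 0.15. Of 22 proliferation genes, 14 were higher and 8 lower, with a median of 0.07, and at p under 0.05 there were 4 higher and 1 lower. Bub1, a mitotic checkpoint kinase, had 1.80 with a standard error of 0.50, and Top2a, a topoisomerase of dividing cells, 0.91 with a standard error of 0.32. The summed level of the proliferation list was not higher with the drug. It was 119 to 131 CPM (median 124) with BCI-838 and 115 to 148 CPM (median 136) in the APP/PS1 controls. Of 17 Notch, SoxC and proneural regulators, 11 were higher and 6 lower, with a median of 0.06 and none at p under 0.05. Sox12, the third SoxC gene, had -0.21 with a standard error of 0.11.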

How the data were processed

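Dissected dentate gyrus RNA (RIN or RQN of 8.4 or greater) was sequenced from 24 mice. The authors deposited whole-number read counts per gene and a signal table of normalised values, which was only checked against the counts. STAR, HTSeq, DESeq and build mm10 are listed in the submitters' processing notes, without versions, and the strand setting is not given in the sources used here. Counts were filtered (minimum count 10, minimum total 15), scaled with TMM and fitted in 1 edgeR 4.0.16 model (R 4.3.3) with a mean per group. Quasi-likelihood p-values were adjusted by Benjamini-Hochberg over 18286 genes. Each standard error was derived from the log2 fold change and its F statistic. Log2 CPM used a prior count of 2. Per-kilobase levels used merged exon lengths of the GRCm38 annotation.

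The members and lists were chosen with earlier results of these data known. All 10 members are named in every comparison, and of the other lists the called genes or the 2 with the smallest p, with others chosen after their values were seen where they touch a result. The 5 genes most like Dcx and most like Eomes were selected by r, and 1 of them is not reported here. Alternatives were DESeq size factors, no filter, DESeq2 1.42.0, the replicate block, the compared groups alone, leaving out the libraries with over 100 Ttr CPM, covariates for the choroid plexus and dorsal midbrain lists, and each library left out. The covariates for the granule and CA field lists, the 36 pairs without Dcx and the relation with the granule list were chosen after seeing the data. The fit was also run on simulated counts with known changes. These held no differences in tissue content between libraries, so they do not show how the fit handles such differences here. Correlations used 100000 permutations (Python 3.11.15), which shuffled libraries without regard to group.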

Additional observations from a re-analysis of the deposited data

Results flagged for a closer look

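In 50 combinations of gene and group, 5 held a library whose gap to the nearest of the others was a large part of the group's range (Dixon's criterion). Chance flags about 1 group in 20. Dcx stood apart in APP/PS1 control replicate 3, at 42.94 CPM, where the other 4 controls lay between 20.9 and 25.6 CPM. It also stood apart in BCI-838 replicate 4, at 49.38 CPM, where the others lay between 37.0 and 37.5 CPM. Neurod1 was low in wheel replicate 4, at 16.98 CPM against 28.5 to 32.7 CPM. Igfbpl1 was low in APP/PS1 control replicate 3, at 0.4052 CPM against 3.96 to 4.64 CPM. Draxin was high in combined replicate 3, at 2.946 CPM against 0.870 to 1.42 CPM.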

How the results depend on the processing

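The 70 member-by-comparison log2 fold changes were recomputed under 10 alternatives and with each library left out. No member was called under any of these except Sox11 with the granule covariate, for the drug and in the test over the 5 groups (1 member each). Of 700 values under the alternatives 75 changed sign, 72 of them in results within 1 standard error of 0. Of 1680 values with 1 library left out 62 changed sign, all in such results. In the drug comparison the number of members above 0 ran from 7 to 10. Depth limits Eomes and Neurog2 most, since single libraries held as few as 2 and 8 counts. The libraries with over 100 Ttr CPM leave 2 APP/PS1 controls when removed. The cause of the changes below was not tested.

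Genes called by DESeq2 numbered 14 for the genotype, 170 for the drug, 61 for the wheel, 82 for both treatments, 364 for the drug added to the wheel, 256 for the wheel added to the drug, 77 for the interaction and 494 for any difference. Fits of the compared groups alone called 1, 9, 0 and 111 genes for the genotype, the drug, the wheel and the wheel added to the drug. The granule covariate gave 17 for the drug, 51 for the drug added to the wheel and 27 for any difference. For the wheel, 0 genes were called with the replicate block, without the libraries with over 100 Ttr CPM and with the choroid plexus covariate. With 1 library left out, genes called ran from 0 to 12 for the drug, 0 to 27 for the wheel, 0 to 17 for both treatments, 0 to 400 for the drug added to the wheel (400 without wheel replicate 3), 0 to 2 for the wheel added to the drug and 3 to 65 for any difference (65 without combined replicate 2).

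With the replicate block, both treatments called 1 gene and the drug value of Sox11 was 0.71. Same-numbered libraries did not deviate together. Of 46 same-numbered pairs, 10 correlated above 0.1, the median was -0.00552, and 6 of 24 libraries correlated best with their own number. The numbers are therefore not taken as pairs.

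Genotype values that changed sign were Dcx 0.26, Eomes -0.88, Neurod1 -0.60, Igfbpl1 -0.26, Sox11 -0.074 and Tubb3 0.050 without the libraries with over 100 Ttr CPM. For the genotype, with the choroid plexus covariate, they were Dcx 0.14, Eomes -0.11, Neurod1 -0.23, Igfbpl1 -0.020 and Tubb3 0.00025. Stmn1 -0.0011 changed sign for the genotype with the dorsal midbrain covariate. For the genotype, with the granule covariate, they were Dcx 0.00022 and Neurod1 -0.082. Stmn1 -0.084 changed sign for the genotype with the CA field covariate. Genotype values with 1 library left out ran from -0.25 to 0.092 for Dcx, from -0.026 to 0.50 for Eomes, from -0.059 to 0.31 for Neurod1 and from -0.23 to 0.19 for Stmn1.

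Drug values that changed sign were Tubb3 -0.010 with the replicate block. For the drug, without the libraries with over 100 Ttr CPM, they were Neurod1 0.60, Tubb3 -0.16 and Stmn1 -0.39. Neurod1 0.25, Tubb3 -0.12 and Stmn1 -0.24 changed sign for the drug with the choroid plexus covariate. For the drug, with the dorsal midbrain covariate, they were Neurod1 0.019, Tubb3 -0.033 and Stmn1 -0.088. Neurod1 0.36, Tubb3 -0.072 and Stmn1 -0.10 changed sign for the drug with the granule covariate. For the drug, with the CA field covariate, they were Tubb3 -0.032 and Stmn1 -0.014. Drug values with 1 library left out ran from -0.32 to 0.043 for Neurod1, from -0.041 to 0.11 for Tubb3 and from -0.061 to 0.36 for Stmn1.

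Wheel values that changed sign were Neurod1 -0.0048 with DESeq size factors. For the wheel, without the low-count filter, they were Neurod1 -0.0014. Neurod1 -0.0051 changed sign for the wheel in DESeq2. For the wheel, in the compared groups alone, they were Neurod1 -0.0037. Draxin -0.061, Tubb3 -0.12 and Stmn1 -0.41 changed sign for the wheel without the libraries with over 100 Ttr CPM. For the wheel, with the choroid plexus covariate, they were Draxin -0.18, Tubb3 -0.093 and Stmn1 -0.30. Dcx 0.024, Neurod1 -0.011 and Draxin -0.039 changed sign for the wheel with the granule covariate. For the wheel, with the CA field covariate, they were Neurod1 -0.030 and Draxin -0.0082. Wheel values with 1 library left out ran from -0.18 to 0.18 for Dcx, from -0.19 to 0.17 for Neurod1, from -0.14 to 0.19 for Draxin and from -0.087 to 0.34 for Stmn1.

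Combined-treatment values that changed sign were Neurod1 0.047 with the replicate block. For both treatments, without the libraries with over 100 Ttr CPM, they were Dcx -0.12 and Neurod1 0.83. Dcx -0.13, Neurod1 0.37 and Draxin -0.10 changed sign for both treatments with the choroid plexus covariate. For both treatments, with the dorsal midbrain covariate, they were Eomes -0.12. Neurod1 0.22 changed sign for both treatments with the granule covariate. For both treatments, with the CA field covariate, they were Neurod1 0.086 and Tubb3 0.013. Combined-treatment values with 1 library left out ran from -0.088 to 0.28 for Dcx, from -0.43 to 0.32 for Eomes, from -0.26 to 0.14 for Neurod1, from -0.27 to 0.62 for Igfbpl1, from -0.27 to 0.24 for Draxin and from -0.15 to 0.0032 for Tubb3.

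Drug-added-to-wheel values that changed sign were Neurod1 0.10 and Igfbpl1 0.056 without the libraries with over 100 Ttr CPM. For the drug added to the wheel, with the granule covariate, they were Neurod1 0.23 and Igfbpl1 0.012. Neurod1 0.12 and Igfbpl1 0.048 changed sign for the drug added to the wheel with the CA field covariate. Drug-added-to-wheel values with 1 library left out ran from -0.045 to 0.24 for Dcx, from -0.27 to 0.11 for Neurod1, from -0.80 to 0.093 for Igfbpl1 and from -0.28 to 0.23 for Draxin.

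Wheel-added-to-drug values that changed sign were Neurog2 0.039 without the libraries with over 100 Ttr CPM. For the wheel added to the drug, with the dorsal midbrain covariate, they were Neurod1 -0.087 and Tubb3 0.026. Neurod1 -0.15 changed sign for the wheel added to the drug with the granule covariate. For the wheel added to the drug, with the CA field covariate, they were Neurog2 0.14, Sox11 0.015 and Tubb3 0.045. Wheel-added-to-drug values with 1 library left out ran from -0.14 to 0.23 for Neurod1 and from -0.35 to 0.16 for Neurog2.

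Interaction values that changed sign were Neurod1 -0.50, Tubb3 0.051 and Stmn1 0.033 without the libraries with over 100 Ttr CPM. For the interaction, with the choroid plexus covariate, they were Neurod1 -0.27. Dcx 0.0031 and Neurod1 -0.11 changed sign for the interaction with the dorsal midbrain covariate. For the interaction, with the granule covariate, they were Neurod1 -0.14. Interaction values with 1 library left out ran from -0.14 to 0.29 for Neurod1 and from -0.058 to 0.12 for Sox4.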

Other observations

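Tac2, which encodes neurokinin B, had the smallest p of the further neuroblast and immature neuron list in 3 comparisons that share the APP/PS1 controls. Its log2 fold change was 3.01 with a standard error of 0.73 for the genotype, -3.02 with 0.73 for the wheel and -2.72 with 0.72 for both treatments. None was called (edgeR adjusted p = 0.88, 0.2522 and 0.2692). With both treatments, Nhlh2, a helix-loop-helix factor of immature neurons, followed at -2.29 with a standard error of 0.71. Fabp7, a lipid carrier of radial glia and astrocytes, had -0.91 with a standard error of 0.26 in the same comparison, and Hes5, a Notch target, -0.50 with 0.16. Bub1 and Top2a had 1.62 and 0.71 there. The choroid plexus list had medians of 2.93, -3.23 and -2.47 in these 3 comparisons, and its part in these values was not tested for these genes.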
